A study of Homo sapiens with 12 samples.

Results

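YAP and TAZ, encoded by YAP1 and WWTR1, are transcriptional coactivators that work through the DNA-binding factors TEAD1 to TEAD4. This report follows these 6 genes and 4 of their best known target genes, CTGF, CYR61, AMOTL2 and ANKRD1, through RNA sequencing of 2 granulosa cell tumor (GCT) cell lines. The 10 genes were chosen by name and all of them were found among the 58735 genes of the deposited table, where CTGF and CYR61 stand under these older symbols of CCN2 and CCN1. The lines are named by the labels of their libraries, which could not be checked further. In untreated cells, where 69% of all genes tested differed between the lines, there was far more YAP1, CYR61 and AMOTL2 in COV434 and more CTGF in KGN. After treatment with 77-39, CYR61 and TEAD1 were higher and TEAD2 and TEAD3 were lower in KGN, where 34% of all genes tested passed. The TEAD2 call was lost in 10 of 15 alternative ways of processing. No member passed the test in COV434, where only 0.0415% of all genes tested passed. In the test of a difference between the responses of the lines, 0 of 9 members passed, beside 3.6% of all genes tested.

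The study treated both lines with 77-39, an inhibitor of the mitochondrial deacetylase SIRT3. The study describes KGN as adult-type and COV434 as juvenile-type GCT cells. For each line, 3 libraries of untreated cells were titled as controls and 3 came from cells given 77-39 for 72 h. The labels state a dose of 10 in a unit that could be read as µM or µg/mL, and this dose also stands on the untreated samples, which were taken as untreated from their titles. Each line has a single culture history, so comparisons between lines count libraries and not lines. The labels do not say whether the libraries of a group came from separate cultures, and the p-values then measure only the spread between these libraries.

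The values are FPKM, fragments on a gene scaled to gene length and library size, so levels can be set side by side between genes. Between lines there is an offset. The library total behind the FPKM was 1.073 to 1.103 times the reads on genes in KGN and 0.911 to 0.978 times in COV434. FPKM thus places KGN somewhat lower against COV434 than a scaling to reads on genes does, which matters for small differences. Between 15547851 and 18280415 reads on genes stood behind each library, and at a length of 1 kb a gene without reads could still be present at up to 0.152 to 0.2 FPKM (3 reads, counting error alone). The treated library 1 labelled COV434 had 13.51% of its reads on mitochondrial genes, against 7.3% to 9.63% in the other 11 libraries. Of the granulosa markers, FOXL2, the transcription factor that maintains granulosa cell identity, had 1 read in the untreated and 1 read in the treated libraries labelled KGN, whereas its mean was 12.4 ± 0.786 FPKM (SD, n = 3) in untreated libraries labelled COV434. FSHR and NR5A1 were at 0 in the untreated libraries of both lines, STAR was at most 0.027 FPKM, CYP19A1 was at 0.0937 FPKM in KGN and 0.106 FPKM in COV434, and INHA and AMH were detected at 1.06 and 4.55 FPKM in KGN and at 4.75 and 8.24 FPKM in COV434. The study ties a mutation of FOXL2 to adult-type GCT and does not speak of its mRNA level. Because this granulosa marker was nearly absent from the libraries labelled KGN, the lines are called here by the labels of their libraries. SIRT3 mRNA did not pass the test in either line (limma, adjusted p = 0.475 in KGN and 0.929 in COV434).

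In the Hippo pathway, the kinases MST1 and MST2 (STK4 and STK3) with the scaffold SAV1 activate LATS1 and LATS2, which work with MOB1A and MOB1B and phosphorylate YAP and TAZ. Phosphorylated YAP and TAZ are kept in the cytoplasm or degraded, and unphosphorylated YAP and TAZ enter the nucleus and bind TEAD factors. YAP activity is therefore set largely by protein modification and location, which RNA levels do not measure. CTGF and CYR61 are secreted matricellular proteins of the CCN family, AMOTL2 is an angiomotin that binds YAP and holds it back, and ANKRD1 is an ankyrin repeat protein of muscle and stressed cells. In the ovary, Hippo signaling and YAP are known for their part in follicle growth and granulosa cell proliferation.

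TEAD factors recognise the letters GGAATG. The promoters of 3 target members are shown so that these letters can be read beside the levels of the genes. RefSeq promoters on GRCh38.p14, each running from 250 bases before to 50 bases after a start, were found for 7 of the 10 members, with 10 promoters in all. TEAD1, TEAD4 and CYR61 were not matched. Below are the 250 bases before the start, 5′ to 3′ along the gene, with every GGAATG, or CATTCC where the match is on the opposite strand, in capitals.
CTGF (chr6:131951373-131951622, minus strand): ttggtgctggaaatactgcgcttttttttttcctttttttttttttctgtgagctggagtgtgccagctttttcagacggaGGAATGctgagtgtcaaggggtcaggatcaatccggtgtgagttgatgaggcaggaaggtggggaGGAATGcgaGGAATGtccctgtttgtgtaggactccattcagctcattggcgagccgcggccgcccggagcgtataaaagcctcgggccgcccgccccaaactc
AMOTL2, second promoter (chr3:134374448-134374697, minus strand): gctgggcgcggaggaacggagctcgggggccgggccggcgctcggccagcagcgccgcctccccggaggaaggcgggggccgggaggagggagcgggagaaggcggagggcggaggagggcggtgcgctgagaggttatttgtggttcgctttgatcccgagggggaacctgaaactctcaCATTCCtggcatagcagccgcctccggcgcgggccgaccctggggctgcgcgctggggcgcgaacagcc
ANKRD1 (chr10:90921088-90921337, minus strand): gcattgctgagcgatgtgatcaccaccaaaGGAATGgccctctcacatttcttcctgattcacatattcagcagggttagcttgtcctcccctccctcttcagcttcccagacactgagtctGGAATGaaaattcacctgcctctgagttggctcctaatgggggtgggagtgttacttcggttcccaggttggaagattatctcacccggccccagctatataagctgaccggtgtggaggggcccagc

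CTGF held 3 copies of GGAATG, whose first bases lie 169, 104 and 95 bases before the start. Searched on both strands, this motif was in 14% of the 35116 RefSeq promoters of the same length, and 3 or more copies were in 0.128% of them, or 45 promoters. ANKRD1 held 2 copies, 220 and 128 bases before the start. The second AMOTL2 promoter held 1 copy on the opposite strand, 69 bases before the start, and the first AMOTL2 promoter held none. Among the regulators, YAP1 held 1 copy 162 bases before its start, and WWTR1, TEAD2 and TEAD3 had none in these windows. The letters TGANTCA, a loose form of the AP-1 motif with any base at N, were in 7.71% of all promoters. Of the 7 members they were found in ANKRD1 alone, 195 bases before the start and without overlapping a GGAATG. This match reads TGATTCA, and a stricter AP-1 motif was not searched for. A match of letters is a description of the reference sequence and does not show that a factor binds there.

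YAP1 (ENSG00000137693, chromosome 11, 102110461 to 102233423, plus strand) was the most abundant of the regulators in COV434. Its FPKM in the untreated libraries 1 to 3 was 27.7, 27.3 and 29 in KGN and 168, 147 and 139 in COV434. The groups did not overlap, and the mean of COV434 was 5.39 times that of KGN. On the log2(FPKM + 1) scale, YAP1 was lower in KGN by a difference of -2.39 (SE 0.1, limma, adjusted p = 1.96e-06). Among protein-coding genes above 0, this put YAP1 at the 98.5th percentile in COV434 and at the 92.5th percentile in KGN. Positions of the members are those of GENCODE release 29 on GRCh38. In bulk RNA, fewer cells of a kind and less RNA per cell cannot be told apart, here and in all later comparisons.

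WWTR1 (ENSG00000018408, chromosome 3, 149517235 to 149736714, minus strand), which encodes TAZ, went the other way. It was at 13.1, 13.8 and 13 FPKM in the untreated libraries labelled KGN and at 8.09, 8.26 and 7.66 FPKM in those labelled COV434, again without overlap (log2 difference 0.66, SE 0.076, limma, adjusted p = 0.000263). Every library had more YAP1 than WWTR1. The YAP1 FPKM was 1.98 to 2.23 times that of WWTR1 in untreated KGN and 17.8 to 20.7 times in untreated COV434.

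**Figure D1:**
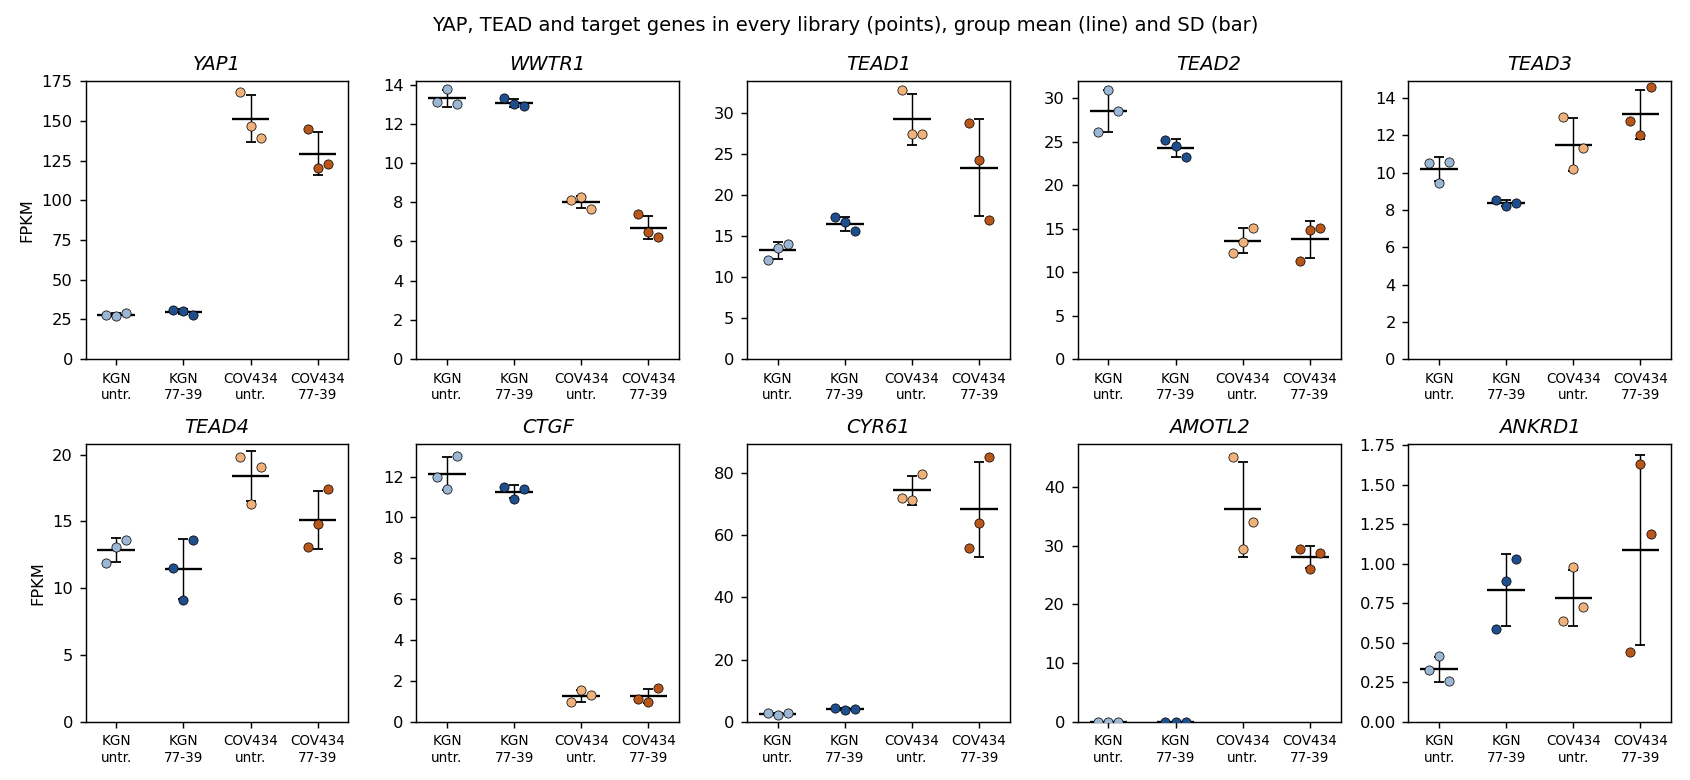
FPKM (vertical axes, each from 0 with its own scale) of the 10 members in the 4 groups of 3 libraries, labelled KGN (blue) and COV434 (orange), untreated (pale) and given 77-39 (dark). Points are libraries, lines are means and bars are SD. YAP1, CYR61 and AMOTL2 are higher in every COV434 library than in any KGN library and CTGF is higher in every KGN library than in any COV434 library.

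The TEAD family differed between the lines in its makeup more than in its sum. The summed FPKM of TEAD1 to TEAD4 was 60.6 to 67.1 in untreated KGN and 67.5 to 77.9 in untreated COV434. TEAD1 (ENSG00000187079, chromosome 11, 12674591 to 12944483, plus strand) was at 12.1, 13.6 and 14.1 FPKM in KGN and at 32.9, 27.5 and 27.5 FPKM in COV434, without overlap (log2 difference -1.09, SE 0.11, limma, adjusted p = 0.000134). TEAD2 (ENSG00000074219, chromosome 19, 49340595 to 49362457, minus strand) showed the opposite order, with 26.1, 31.0 and 28.5 FPKM in KGN and 12.2, 13.5 and 15.1 FPKM in COV434 (log2 difference 1.02, SE 0.11, limma, adjusted p = 0.000211). TEAD2 was therefore the leading TEAD transcript in KGN, with 42.6% to 46.2% of the sum, and TEAD1 that of COV434, with 37.6% to 42.2%. TEAD2 overlaps CD37 and DKKL1 on the opposite strand, whose highest group means were 4.22 and 3.07 FPKM. Whether counting used strand is not given in the sources used here, so reads of these genes cannot be told apart from TEAD2 reads where they overlap.

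TEAD4 (ENSG00000197905, chromosome 12, 2959330 to 3040673, plus strand) was lower in KGN, at 11.9, 13.1 and 13.6 FPKM against 19.8, 16.3 and 19.1 FPKM (log2 difference -0.48, SE 0.11, limma, adjusted p = 0.00607). Its call was lost under quantile normalization (-0.18, adjusted p = 0.168) and under voom of limma on the recovered reads with a lower filter (-0.31, adjusted p = 0.0518). TEAD3 (ENSG00000007866, chromosome 6, 35473597 to 35497076, minus strand) overlapped between the lines, at 10.5, 9.43 and 10.6 FPKM in KGN and 13, 10.2 and 11.3 FPKM in COV434. It was the only tested member that did not pass in this comparison (log2 difference -0.16, 95% interval -0.42 to 0.1, limma, adjusted p = 0.236), and its sign turned under quantile normalization (0.045) and voom (0.035).

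**Figure D2:**
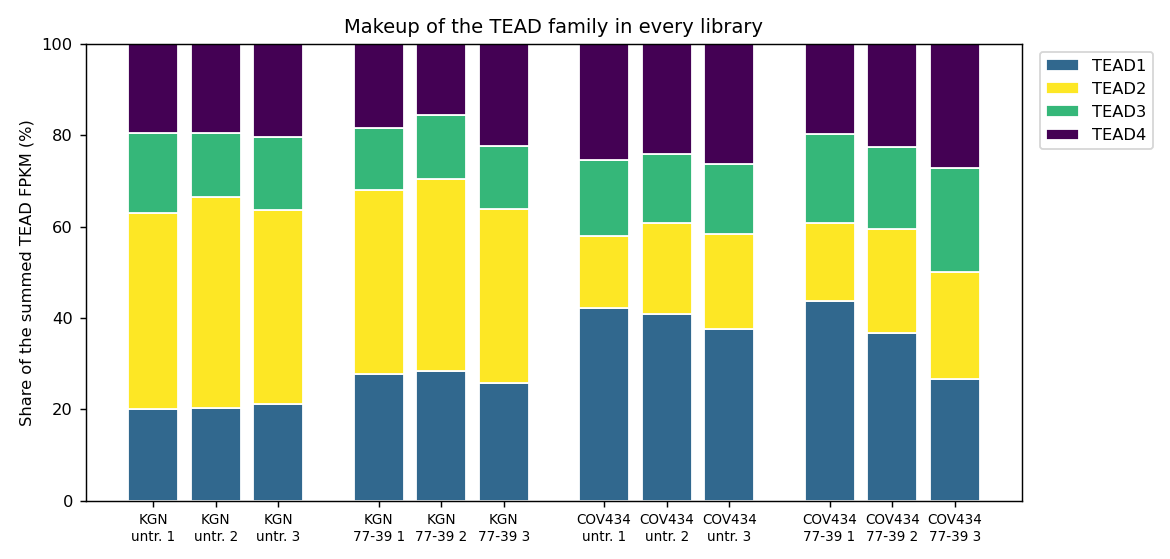
Share (%) of the summed TEAD FPKM taken by TEAD1, TEAD2, TEAD3 and TEAD4 in each of the 12 libraries. TEAD2 takes the most in the libraries labelled KGN (38.2% to 46.2%), TEAD1 the most in 5 of the 6 labelled COV434, and the TEAD1 share is larger in each treated than in each untreated KGN library.

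The 2 CCN members had opposite orders in the 2 lines. CTGF (ENSG00000118523, chromosome 6, 131948176 to 131951373, minus strand) was at 12, 11.4 and 13 FPKM in untreated KGN and at 0.955, 1.56 and 1.3 FPKM in untreated COV434, a ratio of means of 9.53 (log2 difference 2.54, SE 0.12, limma, adjusted p = 2.73e-06). CYR61 (ENSG00000142871, chromosome 1, 85580761 to 85583962, plus strand) was at 2.81, 2.24 and 2.65 FPKM in KGN and at 72.1, 71.5 and 79.8 FPKM in COV434, 29 times higher by the means (log2 difference -4.41, SE 0.099, limma, adjusted p = 1.11e-07). Neither gene overlapped between the lines. Within a library, CYR61 stood at 0.196 to 0.235 times CTGF in untreated KGN and at 45.9 to 75.6 times CTGF in untreated COV434.

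AMOTL2 (ENSG00000114019, chromosome 3, 134355874 to 134375479, minus strand) was nearly absent from one line. In the untreated libraries labelled KGN it was at 0.00901, 0 and 0 FPKM, which is 1 read in all, and in those labelled COV434 it was at 45.1, 29.4 and 34.0 FPKM, with 10861 reads. Scaled to depth, the ratio of reads was 11900, with an exact 95% counting interval from 2140 to 472000. The treated libraries gave 1 read against 8280 (ratio 8820, interval 1580 to 348000). AMOTL2 passed the filter on low values through COV434 alone, so a difference was built into its entry to the test (log2 difference -5.19, SE 0.15, limma, adjusted p = 3.5e-07, a value that depends on the pseudocount). A paralog, AMOTL1, a further angiomotin from the upstream list below, was also near 0 in KGN (8 reads) and had 4110 reads in COV434 (ratio 565, interval 286 to 1310).

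ANKRD1 (ENSG00000148677, chromosome 10, 90912096 to 90921276, minus strand) stayed low in both lines, at 0.327, 0.414 and 0.257 FPKM in untreated KGN and 0.640, 0.981 and 0.725 FPKM in untreated COV434. It did not reach the mean of 1 FPKM needed for the test. With the filter lowered to 0.1 FPKM, it was lower in KGN (log2 difference -0.42, SE 0.1, limma, adjusted p = 0.0133).

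Of the 10 members, 9 were tested between the untreated lines and 8 passed at an adjusted p under 0.05, 3 higher in KGN and 5 lower, beside 69% of the 13098 genes tested, with 32.6% higher and 36.4% lower. No overlap between the lines was seen for 8 of these 9 members, beside 74.1% of all genes tested. The number that passed was thus close to the background, and the sizes of the CYR61, CTGF and YAP1 differences carry the description above. AMOTL2 is counted in both numbers of members but entered the test through COV434 alone, so its difference was built in and its size is a description. Voom on the recovered reads moved the median of all genes from -0.024 to 0.18 in this comparison, or to 0.43 with the lower filter, and left the sign of each of the 8 members that passed.

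**Figure D3:**
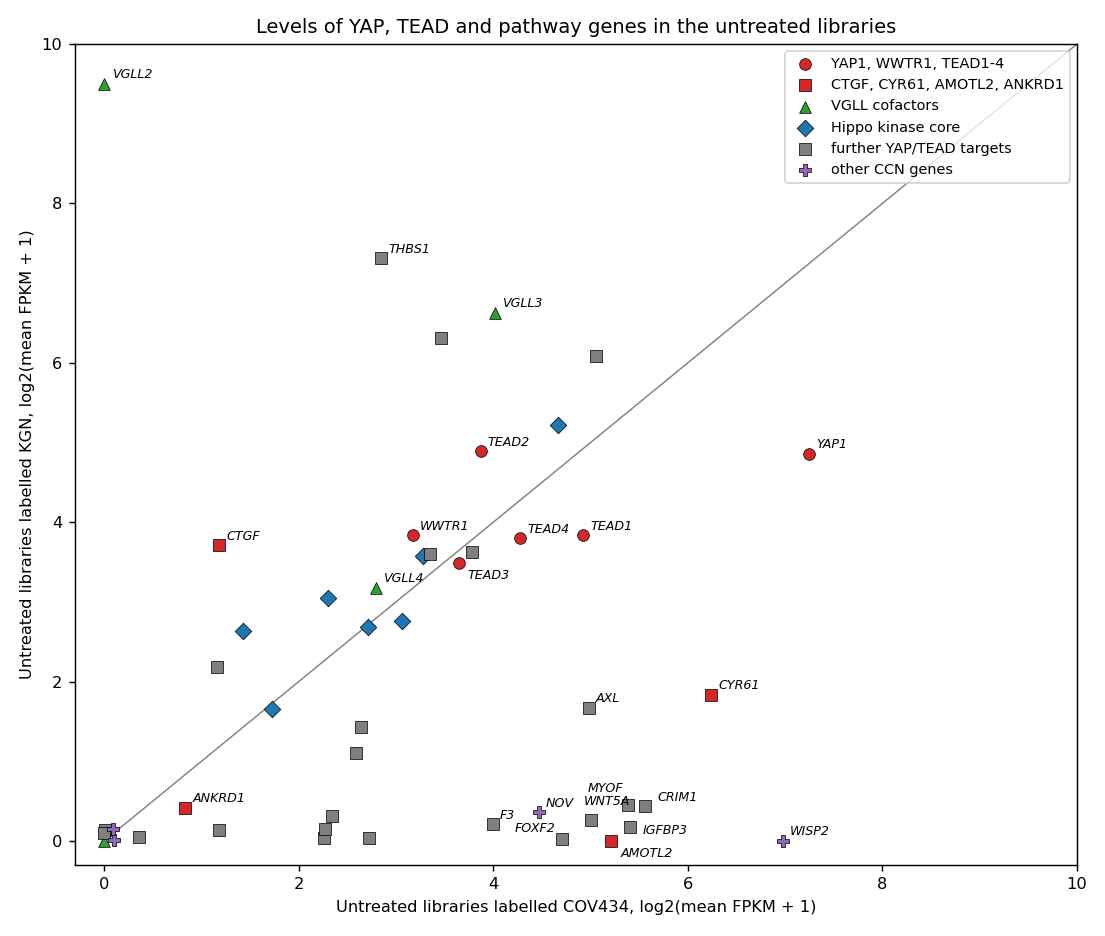
Mean level in untreated libraries, log2(FPKM + 1), in COV434 (horizontal axis) and KGN (vertical axis), for the members (red) and the other genes of the pathway; the line marks equal levels and each point is the mean of 3 libraries per axis. CTGF, VGLL2 and the further target THBS1 stand far above the line and YAP1, CYR61, AMOTL2 and many further targets far below it.

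Other genes of the pathway were counted from lists. Of the Hippo kinase core, 7 of 7 genes were tested and above 1 FPKM in both lines, and 3 were higher and 1 lower in KGN, beside 32.6% higher and 36.4% lower of all genes tested. MOB1B, a LATS coactivator, was at 5.2 ± 0.195 FPKM in KGN and 1.68 ± 0.172 FPKM in COV434 (SD, n = 3, log2 difference 1.21, limma, adjusted p = 1.88e-05), followed by LATS1 (0.74) and MOB1A (0.56). SAV1 was lower in KGN (-0.3, adjusted p = 0.0266), a call lost without either of the untreated KGN libraries 2 (adjusted p = 0.107) and 3 (0.0588) or of the untreated COV434 libraries 2 (0.0598) and 3 (0.0566). The median of this list was 0.33, beside -0.024 for all genes tested.

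Of the 18 upstream regulators, 14 were tested, of which 4 were higher and 6 lower in KGN, 10 of 14 beside the 69% of all genes that passed. The 4 with the smallest p were all lower in KGN, namely AJUBA, a LIM protein that holds back LATS (-2.55), AMOTL1 (-3.14), RASSF1, a scaffold that binds the MST kinases (-1.78), and WWC1, or KIBRA, an activator of the pathway (-2.16). Their adjusted p ranged from 6.44e-06 for AJUBA to 3.95e-05 for WWC1 (limma). AMOTL1 passed the filter through COV434 alone.

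VGLL proteins bind TEAD factors in place of YAP and TAZ. VGLL2 was at 678, 769 and 722 FPKM in the untreated libraries labelled KGN and had no read in those labelled COV434, at least 27000-fold higher when 3 reads are taken as the floor over the group. It ranked 24th of 16120 protein-coding genes above 0 in KGN. VGLL3 was at 98.0 ± 3.0 FPKM in KGN and 15.2 ± 1.27 FPKM in COV434 (SD, n = 3, log2 difference 2.61, limma, adjusted p = 8.67e-07). VGLL1 was at 0 in both, and VGLL4, at 8.04 ± 0.211 and 5.93 ± 1.72 FPKM, did not pass. The summed VGLL FPKM of untreated KGN, 829 ± 43.5, exceeded its summed TEAD FPKM of 64.9 ± 3.7, and in COV434 the order was the opposite, with 21.2 ± 2.81 and 72.8 ± 5.21 (SD, n = 3).

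Of 23 further YAP and TEAD targets, 19 were tested between the untreated lines, and 5 were higher and 13 lower in KGN, with a median of -2.12, beside 32.6% higher and 36.4% lower of all genes tested. However, 10 of the 19 passed the filter through COV434 alone and none through KGN alone. Among the 9 with a mean of at least 1 FPKM in both lines, 5 were higher and 3 lower in KGN. The 4 with the smallest p were FOXF2, a forkhead factor (-4.69), CRIM1, a transmembrane protein that binds BMPs (-5.11), MYOF, a membrane repair protein (-4.92), and WNT5A, a secreted Wnt ligand (-4.73), each of which averaged at most 0.369 FPKM in KGN. All 4 are among the 10 that passed the filter through COV434 alone, so these differences are a description. Of the 9 above 1 FPKM in both lines, THBS1 had the largest difference among those higher in KGN (4.48, limma, adjusted p = 2.95e-07). Among those lower in KGN it was AXL (-3.29, limma, adjusted p = 3.55e-06).

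Of the other CCN genes, WISP2 (CCN5) had 31431 reads in untreated COV434 and none in untreated KGN, at least 11500-fold higher, and NOV (CCN3) was at 21.1 ± 0.401 and 0.281 ± 0.137 FPKM (SD, n = 3). Both passed the test through COV434 alone, and WISP1 and WISP3 were too low to be tested.

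The question of the next comparison is how the members respond to 77-39 in KGN. CYR61 was at 2.81, 2.24 and 2.65 FPKM in the untreated libraries and at 4.51, 3.72 and 4.21 FPKM in the treated ones, without overlap. Its mean rose 1.61 times (log2 difference 0.53, SE 0.087, limma, adjusted p = 0.00484), and it passed in all 15 alternatives, with adjusted p from 0.00106 to 0.039. CTGF, in contrast, was at 12, 11.4 and 13 FPKM without and 11.5, 10.9 and 11.4 FPKM with 77-39 (log2 difference -0.1, 95% interval -0.23 to 0.031, limma, adjusted p = 0.203), and the groups overlapped. CYR61 over CTGF was 0.196 to 0.235 in untreated and 0.342 to 0.394 in treated libraries.

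TEAD1 rose from 12.1, 13.6 and 14.1 FPKM to 17.3, 16.7 and 15.6 FPKM, without overlap (log2 difference 0.3, SE 0.068, limma, adjusted p = 0.0153). The call was lost in the fit of all 12 libraries (adjusted p = 0.282) and narrowly without the treated library 1 (0.0544) or 2 (0.0553). TEAD3 fell from 10.5, 9.43 and 10.6 FPKM to 8.54, 8.20 and 8.38 FPKM (log2 difference -0.25, SE 0.055, limma, adjusted p = 0.0133), and its call was lost in the fit of all 12 libraries (0.149) and without the treated library 2 (0.0523).

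TEAD2 was at 26.1, 31.0 and 28.5 FPKM before and at 25.2, 24.5 and 23.2 FPKM after treatment, also without overlap (log2 difference -0.22, SE 0.069, limma, adjusted p = 0.0461). This call was lost in 10 of 15 alternatives, among them the removal of any 1 of the untreated libraries 2 (adjusted p = 0.119) and 3 (0.113) or the treated libraries 1 (0.0747), 2 (0.11) and 3 (0.111). TEAD4 was at 11.9, 13.1 and 13.6 FPKM and then at 11.5, 9.14 and 13.6 FPKM, which overlapped (log2 difference -0.17, 95% interval -0.48 to 0.13, limma, adjusted p = 0.33). The TEAD1 share of the family was 20% to 21.1% in the untreated and 25.7% to 28.5% in the treated libraries, a description with no test.

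The coactivators themselves did not pass the test in KGN. YAP1 was at 27.7, 27.3 and 29 FPKM without and 31.1, 30.5 and 27.8 FPKM with 77-39 (log2 difference 0.086, 95% interval -0.045 to 0.22, limma, adjusted p = 0.269). WWTR1 was at 13.1, 13.8 and 13 FPKM and at 13.3, 13 and 12.9 FPKM (log2 difference -0.02, 95% interval -0.12 to 0.083, limma, adjusted p = 0.752). Both pairs of groups overlapped. The intervals leave room for a YAP1 difference of up to 0.22 and a WWTR1 difference of at most 0.12 in size on the log2 scale.

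ANKRD1 was at 0.327, 0.414 and 0.257 FPKM in untreated and at 0.585, 0.889 and 1.03 FPKM in treated KGN libraries, with each treated library above each untreated one and 36 against 86 reads in all. It was under the filter of 1 FPKM. With the filter at 0.1 FPKM, the log2 difference was 0.45 (SE 0.11, limma, adjusted p = 0.0409), with no filter its adjusted p was 0.0851, and in voom on the recovered reads the difference was 1.29 (SE 0.35, adjusted p = 0.0119). AMOTL2 had 1 read in either group of KGN, so a fall could not be detected at this depth and no rise was seen.

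Of the 8 members tested in KGN, 4 passed, 2 higher and 2 lower, beside 34% of the 12671 genes tested, with 17.6% higher and 16.4% lower. The 4 members without overlap between treated and untreated libraries stood beside 49.7% of all genes. With so many genes called, 4 of 8 is not far from the background. The fit of all 12 libraries, with 1 shared spread, called 1 member, CYR61, and 1237 genes.

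**Figure D4:**
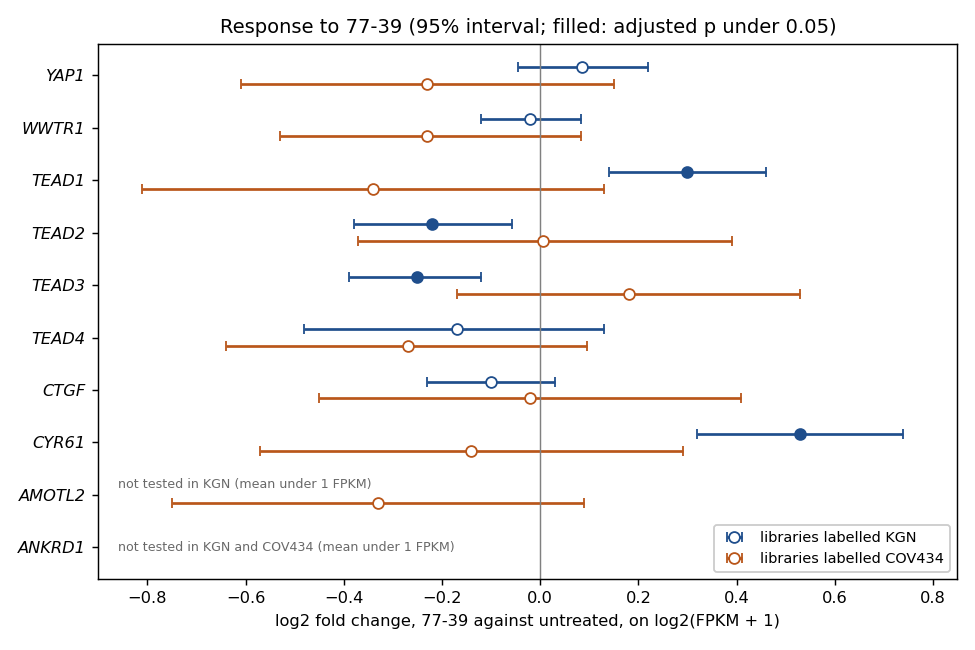
Response to 77-39 (log2 fold change on log2(FPKM + 1), horizontal axis) of each member in the libraries labelled KGN (blue) and COV434 (orange), 3 treated against 3 untreated; bars are 95% intervals and filled points have an adjusted p under 0.05 in limma. CYR61, TEAD1, TEAD2 and TEAD3 pass in KGN, none passes in COV434, and the intervals of COV434 are wider for each member tested in both.

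Around the members in KGN, MOB1B (log2 difference 0.39, limma, adjusted p = 0.00683) and STK4 (0.33, adjusted p = 0.0111) rose, 2 of the 7 genes of the kinase core, beside 17.6% higher and 16.4% lower of all genes tested. The median of this list was 0.16, beside 0.011 for all genes tested. MOB1B went from 5.42, 5.08 and 5.09 FPKM to 7.75, 7.34 and 6.39 FPKM. Of 14 upstream regulators tested, 3 rose and 3 fell, 6 of 14 beside the 34% of all genes that passed. PTPN14, a phosphatase that binds and restrains YAP (0.45, adjusted p = 0.00483), and WWC2, a relative of KIBRA (0.31, adjusted p = 0.0052), rose, and TAOK2, a kinase that activates MST (-0.37, adjusted p = 0.00188), and WWC1 (-0.32, adjusted p = 0.0213) fell. WWC1 lost its call without the untreated library 1 (adjusted p = 0.05) or 3 (0.0726) or the treated library 2 (0.0592).

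None of the 3 VGLL genes tested in KGN passed, and VGLL2 was at 652, 665 and 689 FPKM in the treated libraries. Of the further targets, 9 of 23 were tested in KGN, and 2 rose and 2 fell, beside the same 17.6% and 16.4% of all genes. GADD45A, a stress and p53-inducible gene, rose (log2 difference 0.31, limma, adjusted p = 0.011), from 85.1, 75.4 and 74.2 FPKM to 94.9, 96.0 and 99.8 FPKM. AXL, a receptor tyrosine kinase, fell from 2.09, 2.08 and 2.39 FPKM to 1.46, 1.40 and 1.35 FPKM (-0.41, adjusted p = 0.00806). TNFRSF12A, the TWEAK receptor, fell as well (-0.37, adjusted p = 0.0271), a call lost without the untreated library 1 (0.0614) or 2 (0.0613) or the treated library 1 (0.0772) or 2 (0.0818). In the fit of all 12 libraries, MOB1B was the only 1 of the 9 list genes named for KGN that passed.

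In the libraries labelled COV434, none of the 9 members tested passed in limma, nor at an unadjusted p under 0.05, and voom on the recovered reads also called 0 of them. Of all 12060 genes tested, 0.0415%, or 5 genes, passed (0.00829% higher and 0.0332% lower with 77-39), and 8% had an unadjusted p under 0.05. When library numbers entered as a block, 87 genes (0.721%) passed, and 488 (4.05%) did in the fit of all 12 libraries, again with 0 members. With the block, YAP1, TEAD1 and AMOTL2 had an unadjusted p of 0.0494, 0.0411 and 0.0333, beside 14.4% of all genes with an unadjusted p under 0.05, and did not pass (limma, adjusted p = 0.346, 0.324 and 0.301 in this order). In each of the 3 same-numbered pairs, 5 of the 9 members (YAP1, WWTR1, TEAD1, TEAD4 and AMOTL2) were lower with 77-39, as were 18.9% of all genes tested, a count added after the values were seen. The labels do not state that these numbers mark pairs, and the third pair was not told apart in the values. A joint fall of these members was not tested.

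CYR61 was at 72.1, 71.5 and 79.8 FPKM without and at 55.8, 63.9 and 85.3 FPKM with 77-39, and treated library 3 stood above all untreated libraries (log2 difference -0.14, 95% interval -0.57 to 0.29). TEAD1 was at 32.9, 27.5 and 27.5 FPKM and at 28.8, 24.3 and 17.0 FPKM, with library 3 the lowest and library 1 within the untreated range (log2 difference -0.34, 95% interval -0.81 to 0.13). AMOTL2 was at 45.1, 29.4 and 34.0 FPKM and at 29.4, 26 and 28.8 FPKM, with only library 1 of the treated set reaching the lowest untreated value as printed (log2 difference -0.33, 95% interval -0.75 to 0.089). None of these 3 genes passed (limma, adjusted p = 0.944, 0.785 and 0.756 in this order).

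WWTR1 was the only member whose treated libraries, at 7.38, 6.50 and 6.25 FPKM, all lay below the untreated ones, at 8.09, 8.26 and 7.66 FPKM, beside 14.4% of all genes without overlap. Its log2 difference of -0.23 had a 95% interval from -0.53 to 0.083 and did not pass (limma, adjusted p = 0.781). YAP1 had the same difference of -0.23 (95% interval -0.61 to 0.15), with 168, 147 and 139 FPKM in untreated and 145, 120 and 123 FPKM in treated libraries. TEAD2, TEAD3 and TEAD4 had differences of 0.0056, 0.18 and -0.27.

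CTGF stayed low in COV434, at 0.955, 1.56 and 1.3 FPKM and at 1.11, 0.990 and 1.63 FPKM, with a difference of -0.02 (95% interval -0.45 to 0.41). ANKRD1 was at 0.640, 0.981 and 0.725 FPKM without and 0.439, 1.63 and 1.19 FPKM with 77-39, a wide spread that overlapped the untreated range on both sides. No gene of the Hippo core, the upstream regulators, the VGLL cofactors, the further targets or the other CCN genes passed in COV434 (limma). At an unadjusted p under 0.05 there were 1 of 7, 1 of 14, 0 of 2, 5 of 20 and 0 of 2 in this order, beside 8% of all genes tested.

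A call in KGN and none in COV434 does not show that the lines differed, so the difference between the responses was tested over all 12 libraries. Of 9 members tested, 0 passed in limma, beside 3.6% of 13127 genes (1.85% with the higher and 1.74% with the lower response in KGN), and 3 had an unadjusted p under 0.05, beside 18% of all genes. CYR61 had the largest difference among the members (KGN response minus COV434 response 0.67, SE 0.2, adjusted p = 0.0965), followed by TEAD1 (0.64, SE 0.22, adjusted p = 0.156) and TEAD3 (-0.43, SE 0.14, adjusted p = 0.14). With the library number as a block, CYR61 passed (SE 0.13, adjusted p = 0.0415).

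Among the fits that left out 1 library, CYR61, TEAD1 and TEAD3 passed only where a certain COV434 library was left out. CYR61 also passed without the treated library 3 (0.84, adjusted p = 0.0179), TEAD1 passed without the treated library 1 (0.8, adjusted p = 0.0365), the library with the highest mitochondrial share, and TEAD3 passed without the untreated library 1 (-0.51, adjusted p = 0.0465). The part of the mitochondrial share in these values was not tested. YAP1 had a difference of 0.31 (95% interval -0.012 to 0.64, adjusted p = 0.297), WWTR1 0.21, TEAD2 -0.23, TEAD4 0.098, CTGF -0.08 and AMOTL2 0.33. AMOTL2 entered this test through COV434 alone. Of the lists, 1 of 14 upstream regulators (WWC2, 0.69, limma, adjusted p = 0.0236) and 1 of 19 further targets (FOXF2, 0.41, adjusted p = 0.0429) passed, and none of the kinase core, the VGLL cofactors or the other CCN genes did. FOXF2 entered through COV434 alone as well, with 2 reads in untreated and 11 in treated KGN.

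Over the 12 libraries, the genes whose log2(FPKM + 1) ran closest to YAP1 were TTC39C and CDYL2 (Pearson r = 0.9989 for both) and FAM83A (0.9985). For CTGF they were HSD17B14 (0.9976), PCTP (0.997) and ABCC6P2 (0.9967). These values mostly restate the difference between the 2 lines, since 2082 of 13126 genes reached 0.95 with YAP1 and 1705 with CTGF, and they are given as a description.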

How the data were processed

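RNA of untreated and 77-39 treated KGN and COV434 cells was sequenced in 12 libraries, with each condition taken from its label. The authors deposited FPKM, fragments on a gene divided by gene length and library size. The submitters' processing notes name HISAT2 2.0.5 and mouse genome builds, although the table is human and the coordinates of all 58735 genes match GENCODE release 29 on GRCh38. The counting tool and its use of strand are not given in the sources used here, and an extraction text that mentions retinas was not used. FPKM times gene length gave whole reads, within 0.05, for 100% of genes above 0. From these values, reads on genes (15547851 to 18280415 per library) were recovered.

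Tests used limma (lmFit, then eBayes with trend), fitted to log2(FPKM + 1) for every gene whose mean reached 1 FPKM. A fold change on this scale understates the change of low genes. All p-values are two-sided and were adjusted by Benjamini-Hochberg across the genes tested, and a call is an adjusted p under 0.05. The response was tested within each line (6 libraries), the responses by an interaction over 12 libraries, and the lines over the 6 untreated libraries. All comparisons with untreated libraries share those libraries. Alternatives were a pseudocount of 0.1, a filter of 0.1 FPKM or none, median-ratio scaling, quantile normalization, the library number as a block, a fit of all 12 libraries, voom on the recovered reads, and leaving out single libraries. Voom with the filter of 0.1 FPKM was added after the data were seen.

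The labels number the libraries of each group. Deviations from the group means correlated between same-numbered treated and untreated libraries at 0.4, 0.474 and 0.166 in COV434 and at -0.016, -0.018 and -0.019 in KGN. Differently numbered libraries of COV434 correlated at -0.469 to 0.154, with the 0.154 between untreated library 3 and treated library 2. The numbers thus seem to pair the COV434 libraries 1 and 2, while the third pair is not told apart. This is read from the data and not from the labels.

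The members, gene lists and tests were chosen with earlier results of these data known. Named genes are the 10 members, SIRT3, the markers, and from each list up to 4 genes with the smallest p among those called, of which 1 is not reported here. For YAP1 and CTGF, the 3 genes with the highest Pearson r were named. THBS1 and AXL were named between the untreated lines after their values were seen. The read ratios of genes near 0, the ranks, the genes that overlap TEAD2 and the neighbours of AMOTL2 were added after values were seen. Lists were described by counts and medians. The methods were tested on simulated data. Versions were limma 3.58.1 on R 4.3.3, and pandas 2.3.3, numpy 2.4.6, scipy 1.17.1 and matplotlib 3.10.9 on Python 3.11.15.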

Additional observations from a re-analysis of the deposited data

Results flagged for a closer look

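Among the genes of the lists, 2 had responses that differed between the lines in the interaction test of limma, beside 3.6% of the 13127 genes tested. They were 1 of 14 upstream regulators and 1 of 19 further targets tested, which is near that background. WWC2, a relative of the Hippo activator KIBRA, was at 6.78, 6.60 and 6.56 FPKM in untreated and 8.93, 8.51 and 7.96 FPKM in treated libraries labelled KGN, and at 4.53, 4.36 and 3.43 FPKM and then 3.22, 2.84 and 2.70 FPKM in those labelled COV434. Each treated library lay above the untreated ones in KGN and below them in COV434, with a difference between the responses of 0.69 (SE 0.14, adjusted p = 0.0236). Of all genes tested, 49.7% in KGN and 14.4% in COV434 were without overlap in 1 direction or the other. The call was lost without any 1 of the untreated KGN libraries 1 (adjusted p = 0.0584), 2 (0.072) and 3 (0.0724), the treated KGN libraries 1 (0.078) and 2 (0.0752) or the treated COV434 library 2 (0.0563).

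FOXF2, a forkhead factor, was at 26.1, 24.8 and 24.5 FPKM in untreated and 20.5, 19.4 and 20.4 FPKM in treated libraries labelled COV434. In KGN it was at most 0.044 FPKM untreated and 0.0926 FPKM treated. The difference between the responses was 0.41 (SE 0.096, adjusted p = 0.0429). FOXF2 passed the filter through COV434 alone and had 2 reads in untreated and 11 in treated KGN, so its KGN response on the log2(FPKM + 1) scale stays near 0 and the difference mostly restates the COV434 difference of -0.31, which did not pass (limma, adjusted p = 0.603). This call of the difference between the responses was lost in 6 planned or added settings, with adjusted p from 0.0507 with the filter of 0.1 FPKM to 0.0811 under quantile normalization, and without any 1 of 9 libraries (all 6 of KGN, the untreated COV434 libraries 2 and 3 and the treated COV434 library 2), with adjusted p up to 0.134 without the treated KGN library 2.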

How the results depend on the processing

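The counts here are of all genes called and of members called. For KGN (4307 genes, 4 members called), the fit of all 12 libraries called 1237 genes and 1 member, and leaving out 1 library gave 2751 to 4128 genes and 1 to 4 members, lowest without the treated library 2. For COV434 (5 genes), a pseudocount of 0.1 and a filter of 0.1 FPKM each gave 3, no filter 1, the fit of all 12 libraries 488, the replicate block 87, voom 25, voom with the filter of 0.1 FPKM 38, and leaving out 1 library 1 to 7, highest without the treated library 1. For the interaction (472 genes, 0 members), voom gave 264 and voom with the lower filter 175, leaving out 1 library 126 (without the treated KGN library 1) to 975 (without the treated COV434 library 1) genes and 0 to 1 members, and the replicate block 1 member. The count between the untreated lines stayed within 1.5 times under every alternative run.

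In KGN, where the numbers pair nothing, the block took the calls of TEAD2 (adjusted p = 0.0808) and TNFRSF12A (0.0512) and left 3 members. In the interaction it added CYR61 (0.0415) and took FOXF2 (0.0691), and between the untreated lines it took SAV1 (0.0834). It changed no other call of a gene named in the text, where THBS1 and AXL between the untreated lines were not looked at.

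Of the values of single genes, 978 kept sign and call, 67 lost and 7 gained a call. Signs turned for 13 values, none of them called. These were WWTR1 in KGN (-0.035 to 0.0053 over single libraries left out), likewise TEAD2 (-0.064 to 0.13) and CTGF (-0.14 to 0.07) in COV434 and TEAD4 (-0.024 to 0.24) and CTGF (-0.17 to 0.039) in the interaction, and TEAD3 between the untreated lines (0.045 with quantile normalization, 0.035 with either voom fit). The cause was not tested. With 3 libraries a group, the wide COV434 intervals limit what can be said of its members, and depth limits AMOTL2 in KGN and ANKRD1 in both lines.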

Other observations

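RYK, ANAPC13 and CEP63, neighbours of AMOTL2 on chromosome 3 looked up after the AMOTL2 values were seen, were not near absent from the libraries labelled KGN. RYK, the nearest gene tested on the lower side (134065303 to 134250744), was at 9.66 ± 0.399 FPKM in untreated KGN and 8.09 ± 0.954 FPKM in untreated COV434 (SD, n = 3). ANAPC13 (134477706 to 134486716) was at 7.03 ± 0.143 and 21.1 ± 9.14 FPKM, and CEP63 (134485721 to 134575017) at 2.83 ± 0.0493 and 2.47 ± 0.602 FPKM. Of the neighbours farther out, RAB6B was higher in KGN, at 10.9 ± 0.0586 FPKM in untreated KGN and 2.03 ± 0.257 FPKM in untreated COV434. SLCO2A1 was low in both lines, at 0.011 ± 0.00507 FPKM in untreated KGN and 0.251 ± 0.0598 FPKM in untreated COV434. EPHB1 averaged 0.0326 FPKM in untreated KGN and was at 0 in COV434.

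Stromal markers differed between the lines beside the YAP and TEAD targets that were high in COV434. PDGFRB was at 2.31 ± 0.584 FPKM in untreated COV434 and 0.0262 ± 0.0199 FPKM in untreated KGN, COL1A1 at 12.1 ± 2.58 and 0.117 ± 0.0139 FPKM, and DCN at 8.39 ± 3.5 and 2.18 ± 0.0244 FPKM (SD, n = 3). The epithelial markers EPCAM and CDH1 averaged at most 0.0519 FPKM in both, PTPRC at most 0.226 FPKM and PECAM1 at most 0.144 FPKM. The part of these genes in the results was not tested.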
